A study of Mus musculus with 12 samples.

Results

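The genes described here are 10 genes of the growth hormone, STAT5 and IGF axis of the liver: the receptor gene Ghr, the transcription factor genes Stat5a and Stat5b, the feedback inhibitor gene Socs2, the hormone gene Igf1, and Igfals, Igfbp1, Igfbp2, Igfbp3 and Igfbp4, whose proteins carry IGFs. They were chosen by name for their place in the pathway, with earlier results of these data known. All 10 were measured, among 19938 genes that the array table holds in all. Each gene is read from a probe set annotated with exactly 1 gene symbol. The 10 genes have 11 such probe sets, since Socs2 has 2, and the brighter one was used for it. The study set 6 livers with reduced Grb14 (sh Grb14) against 6 control livers (sh scramble), all from C57Bl/6J mice. At 10 weeks of age the mice had been injected into a vein with an adenovirus that makes either a short hairpin RNA against Grb14 or a scrambled one, and the fed livers were examined 7 days after infection. Both groups therefore carry adenovirus, each with 1 hairpin. Livers without virus were not analysed here, and the sex of the mice is not given in the labels. GRB14, the product of the targeted gene, docks on the insulin receptor once that is active and restrains its signal.

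Growth hormone from the pituitary binds its receptor GHR on hepatocytes and activates the bound kinase JAK2, which phosphorylates STAT5B and STAT5A. The STAT5 proteins then enter the nucleus and switch on Igf1, Igfals, Socs2 and many genes that differ between male and female livers, while SOCS2 marks the receptor for degradation. Liver is the main source of circulating IGF1, which travels mostly in a complex with IGFBP3 and the acid-labile subunit encoded by Igfals. Insulin raises hepatic GHR in rodents and represses Igfbp1 through the transcription factor FOXO1, so this axis also reads the fed state.

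Grb14 itself, the targeted gene, lay at log2 8.02 to 8.44 in sh Grb14 livers, against 10.08 to 10.25 in sh scramble livers, and 26.7% of its level was left (change −1.91, SE 0.0591; limma adjusted p = 7.99e-14). All levels below are deposited log2 RMA values, in which 1 unit is a doubling, and a change is sh Grb14 minus sh scramble. A gene was called when its limma p, adjusted by the Benjamini-Hochberg method over all 19938 genes, was under 0.05. By that rule 65.3% of all genes were called, 25.8% higher and 39.5% lower in sh Grb14 livers, and the groups did not overlap for 41.2%. Of the called genes 39.5% were higher. Centring each array on the median of its probe sets with 1 symbol changed that share to 23.5%. The same centring moved the median change of all genes from −0.10 to −0.24. The liver sh scramble 6 stood apart from its group in 79 genes, each more than 1 log2 unit from the mean of the other 5 livers, against 8 to 44 genes for each other liver. Results that rest on it are given with and without it.

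Of the 10 axis genes, 8 were lower and 1 was higher in sh Grb14 livers, and Stat5a was not called. Their median change was −0.64, against −0.10 over all genes tested. Set against the background shares above, 8 of 10 lower compares with 39.5% of all genes. No overlap between groups for 8 of 10 compares with 41.2%. Because the genes were chosen with earlier results of these data known, these counts are a description only. The changes ran from −2.53 for Igfbp2 to 1.71 for Igfbp1, so the carriers of the IGFs held both ends, while the receptor, the transcription factors and Igf1 lay in between. Since the tissue was whole liver, fewer cells of a type and less RNA per cell cannot be told apart in any of these values.

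**Figure D1:**
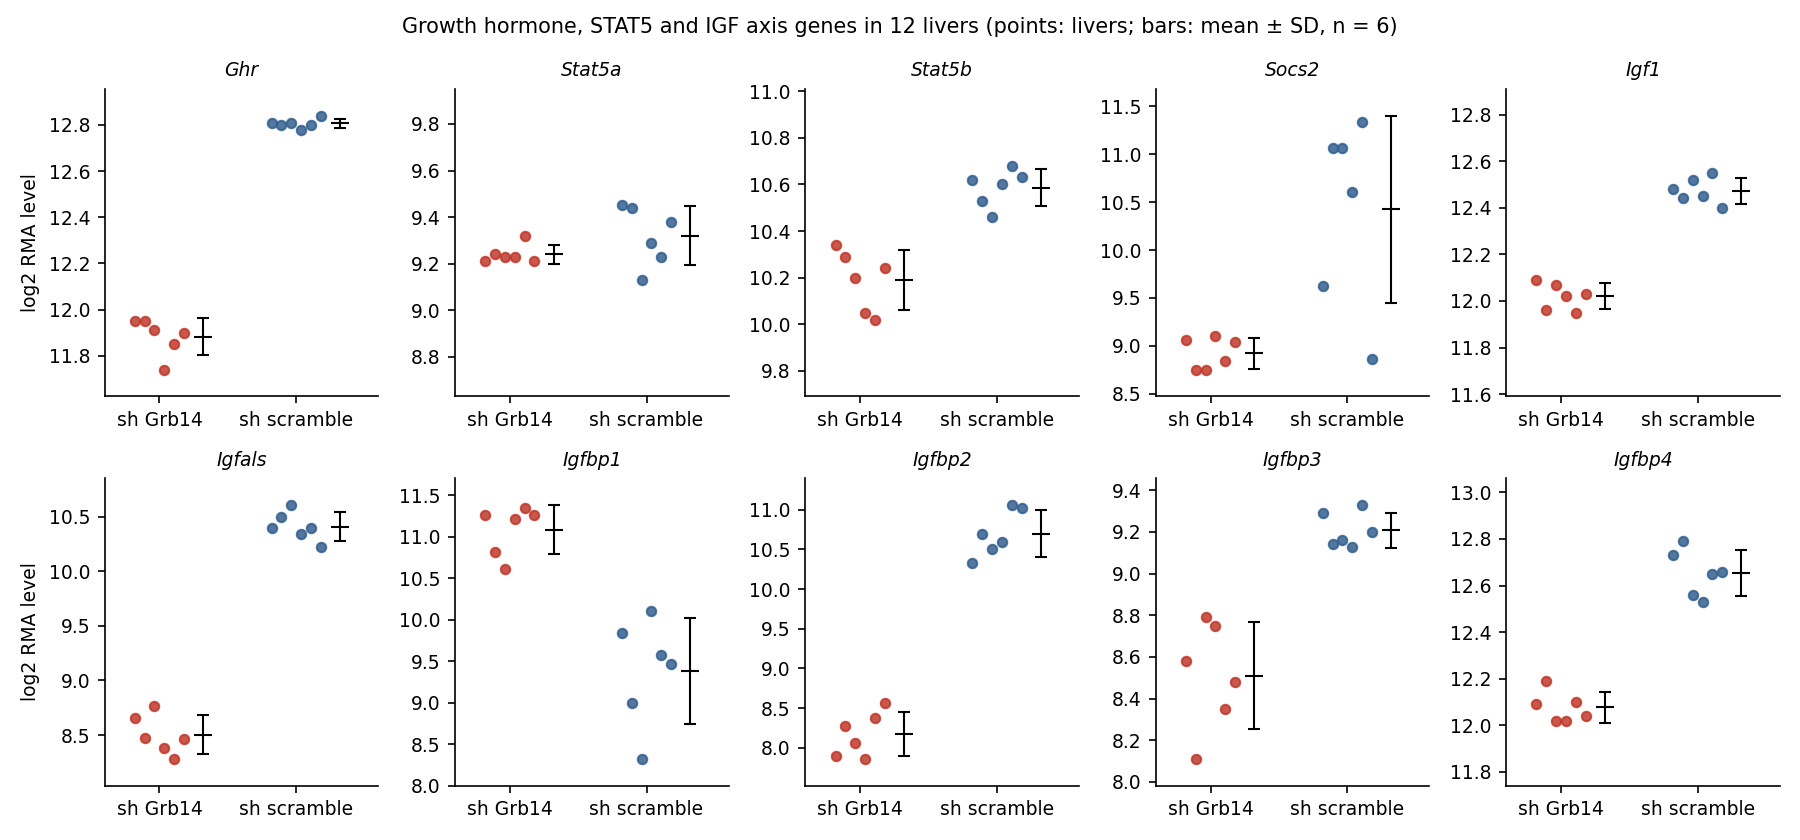
Log2 RMA level (y axes, a separate scale for each gene) of the 10 axis genes in sh Grb14 livers (red, left) and sh scramble livers (blue, right), with 1 point per liver and bars for mean ± SD, n = 6. The groups are apart for every gene shown except Stat5a and Socs2, and Igfbp1 is the gene that is higher in sh Grb14 livers.

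To show what the annotation places upstream of the axis genes, the 250 bases before each transcript start of the RefSeq promoter table (GRCm38.p6) were searched on both strands. Of the 10 genes, 9 matched the table by symbol, with 15 windows in all. The letters of a STAT5 element, TTCNNNGAA, stood in 2306 of 32851 windows of all genes (7.02%) and in 2 windows of the axis, both of them before Igfals. The letters of a FOXO element, GTAAACA, stood in 1040 windows of all genes (3.17%) and in 1 window of the axis, which also belongs to Igfals. The insulin response letters CAAAACA, searched after the data had been seen, stood in 1827 windows of all genes (5.56%) and in 1 window of the axis, before Igfbp1. The windows of the other axis genes in the table held no match, among them both windows of Igfbp2, the gene that moved most, and neither did the remaining Igfals window. The 3 sequences shown are those with a match, all on the plus strand and with the matched letters in capitals: chr17:24877594-24877843 with a STAT5 match that begins 236 bases before the start, chr17:24877981-24878230 with a FOXO match at 242 bases, read as its reverse complement, and a STAT5 match at 58 bases, and chr11:7197537-7197786 with the insulin response match at 108 bases.
Igfals, first start: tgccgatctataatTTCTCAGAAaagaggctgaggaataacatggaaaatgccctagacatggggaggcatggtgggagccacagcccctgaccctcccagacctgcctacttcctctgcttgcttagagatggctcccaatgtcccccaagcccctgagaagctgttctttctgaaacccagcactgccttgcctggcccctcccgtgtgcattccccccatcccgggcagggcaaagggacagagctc
Igfals, second start: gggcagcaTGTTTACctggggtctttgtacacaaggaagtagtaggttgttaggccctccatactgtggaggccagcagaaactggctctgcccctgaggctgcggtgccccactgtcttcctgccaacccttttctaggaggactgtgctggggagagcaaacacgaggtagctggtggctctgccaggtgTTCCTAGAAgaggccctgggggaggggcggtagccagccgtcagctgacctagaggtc
Igfbp1: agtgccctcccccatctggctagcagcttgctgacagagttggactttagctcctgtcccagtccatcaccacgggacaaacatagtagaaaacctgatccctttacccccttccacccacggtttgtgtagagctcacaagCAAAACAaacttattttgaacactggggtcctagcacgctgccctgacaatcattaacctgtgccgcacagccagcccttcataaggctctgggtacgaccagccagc
A match of letters is a description of the sequence and was not tied to binding or to a change by any measurement here. The known STAT5 elements of Igf1 lie far from its starts, outside such windows.

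Ghr, which encodes the growth hormone receptor, was lower in every sh Grb14 liver. Its log2 level had a lowest value of 11.74, a median of 11.90 and a highest value of 11.95 in sh Grb14 livers, against 12.78, 12.81 and 12.84 in sh scramble livers. The groups were separated by 0.83 log2 units, and the 6 sh scramble livers lay closer together than the 6 sh Grb14 livers (SD 0.0813 in sh Grb14 and 0.0197 in sh scramble). The change was −0.92 (SE 0.0363; limma adjusted p = 1.31e-12), so that sh Grb14 livers kept 52.7% of the level in sh scramble livers (95% interval 50% to 55.6%).

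Of the 2 STAT5 genes, Stat5b fell and Stat5a was not called. Stat5b, which encodes the STAT5 protein that predominates in liver, had a lowest, median and highest level of 10.02, 10.22 and 10.34 in sh Grb14 livers, against 10.46, 10.61 and 10.68 in sh scramble livers. No sh Grb14 liver reached the lowest sh scramble liver, and the change was −0.40 (SE 0.0565; limma adjusted p = 1.09e-05), or 75.9% of the sh scramble level. Stat5a, its neighbour on chromosome 11, had 9.21, 9.23 and 9.32 in sh Grb14 livers, against 9.13, 9.34 and 9.45 in sh scramble livers. The Stat5a groups overlapped, with the lowest liver of all in the sh scramble group (sh scramble 3), and the change of −0.081 (SE 0.0558; 95% interval −0.20 to 0.037) was not called (limma adjusted p = 0.207). That call turned under 3 of the alternatives: the Stat5a change was −0.22 with median centring (limma adjusted p = 0.00103), −0.16 with quantile normalization (0.0395) and −0.12 without sh scramble 3 (0.0473), in a range of 0.00103 to 0.399 over all alternatives. Within each array, the Stat5a level minus the Stat5b level ran from −1.13 to −0.70 in sh Grb14 livers and from −1.45 to −1.08 in sh scramble livers. The difference of the 2 changes was 0.32 (95% interval 0.13 to 0.50; exact permutation p = 0.00433, adjusted p = 0.00519 over the 6 pairs of axis genes compared). Under quantile normalization it was 0.20 and not past the threshold (adjusted exact p = 0.0541).

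Socs2, a STAT5 target whose protein brakes growth hormone signalling, was low and narrow in sh Grb14 livers and spread widely in sh scramble livers. Its lowest, median and highest levels were 8.75, 8.94 and 9.10 in sh Grb14 livers, a width of 0.35, against 8.86, 10.84 and 11.34 in sh scramble livers, a width of 2.48. Of the sh scramble livers, 4 lay at 10.61 or more, sh scramble 1 lay at 9.62, and sh scramble 6, at 8.86, was inside the sh Grb14 range. The change was −1.51 (SE 0.321; limma adjusted p = 6.80e-04; exact permutation p = 0.00866), which leaves 35.2% of the sh scramble level with a 95% interval of 22% to 56.5%. Without sh scramble 6 it was −1.82 (limma adjusted p = 2.68e-06). The dimmer Socs2 probe set showed the same low sh scramble liver, with 7.25 to 7.75 in sh Grb14 livers, against 8.36 to 8.69 in sh scramble 2 to 5, 7.95 in sh scramble 1 and 7.58 in sh scramble 6. Its change was −0.70 (SE 0.154; limma adjusted p = 8.83e-04 over 21789 probe sets), so the size of the Socs2 change depends on the probe set while its direction does not.

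Igf1, the gene of the circulating growth factor, fell in every sh Grb14 liver, by less than Ghr or Igfals. Its lowest, median and highest levels were 11.95, 12.02 and 12.09 in sh Grb14 livers, against 12.40, 12.46 and 12.55 in sh scramble livers. All 6 sh Grb14 livers lay below all 6 sh scramble livers, by at least 0.31. The change was −0.45 (SE 0.0351; limma adjusted p = 6.35e-09), or 73.1% of the sh scramble level, and quantile normalization reduced it to −0.25 (limma adjusted p = 4.37e-06). The Igf1 level minus the Ghr level within an array was 0.0095 to 0.28 in sh Grb14 livers and −0.44 to −0.25 in sh scramble livers. The difference of the 2 changes was 0.47 (95% interval 0.37 to 0.57; exact permutation p = 0.00216, adjusted p = 0.00325), so Ghr fell further than Igf1 on this scale. Given the ranges of Igf1 and Ghr in each group, this p was bound to be the smallest possible and adds no support. Both genes lie near the top of the array's range, which ends at 14.244, and compression of bright values was not tested.

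Igfals, whose product holds IGF1 and IGFBP3 together in the blood, fell strongly. Its levels were 8.28, 8.46 and 8.77 (lowest, median and highest) in sh Grb14 livers, against 10.22, 10.40 and 10.61 in sh scramble livers. A gap of 1.45 log2 units separated the groups, and neither group was spread widely. The change was −1.91 (SE 0.0799; limma adjusted p = 2.71e-12), so that 26.6% of the sh scramble level was left (95% interval 23.6% to 29.9%). Igf1 and Igfals, both STAT5 targets, changed unequally: Igf1 minus Igfals within an array was 3.30 to 3.67 in sh Grb14 livers and 1.91 to 2.18 in sh scramble livers. This is a difference of 1.46 between the 2 changes (95% interval 1.30 to 1.62; exact permutation p = 0.00216, adjusted p = 0.00325). The ranges of Igf1 and Igfals in each group already bound this p to be the smallest possible, so it adds no support. The same contrast of Igf1 with Socs2 gave 1.05 (95% interval 0.19 to 1.92; exact permutation p = 0.0433, adjusted p = 0.0433). That value was 1.35 without sh scramble 6, and the call was lost when any 1 of sh scramble 2, 3, 4 or 5 was left out. Igf1 is brighter than Igfals and Socs2 in every liver, and compression of bright values was not tested for these contrasts either.

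**Figure D2:**
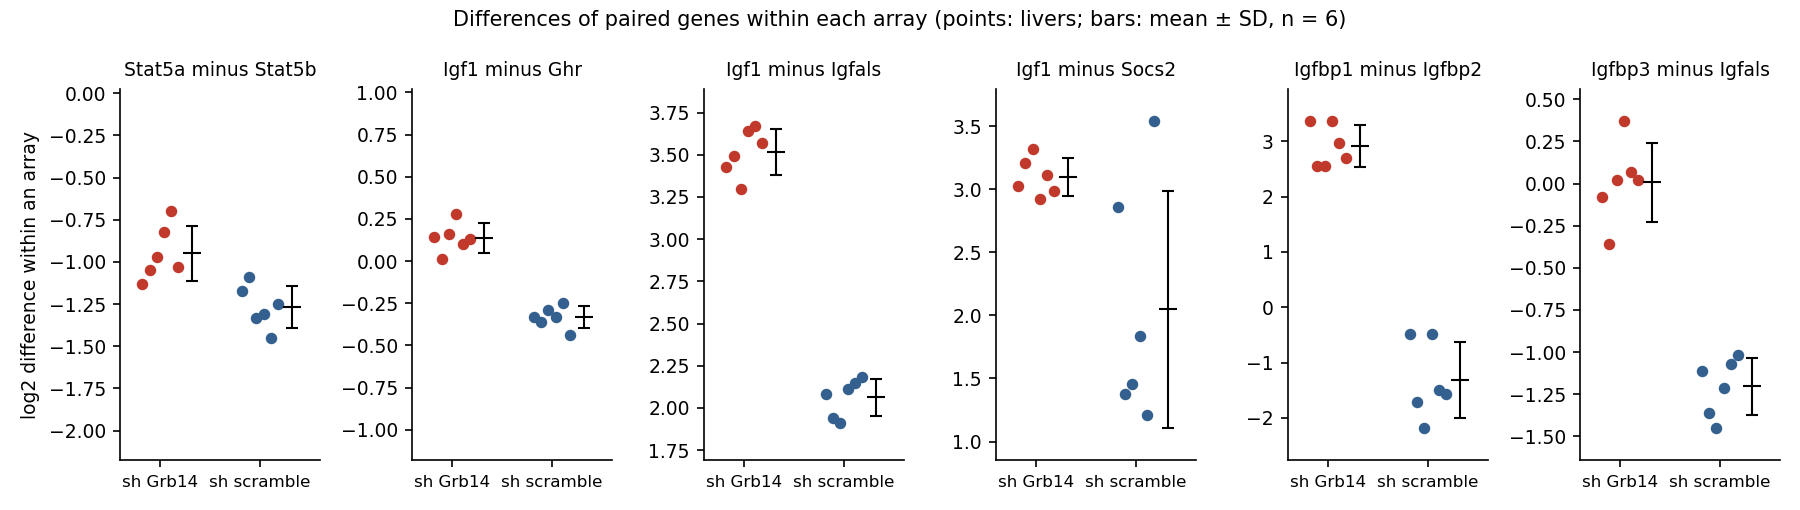
Difference of the log2 levels of 2 axis genes within each array (y axes, a separate scale for each pair) in sh Grb14 livers (red, left) and sh scramble livers (blue, right), with 1 point per liver and bars for mean ± SD, n = 6. Groups that stand apart mean that the 2 genes changed unequally, as for Igf1 minus Igfals, while the groups overlap for Igf1 minus Socs2 and narrowly for Stat5a minus Stat5b.

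Of the 4 binding protein genes, 1 rose and 3 fell. Igfbp1, whose protein binds and mostly inhibits IGFs and whose gene is switched on in fasting liver, rose. Its lowest, median and highest levels were 10.61, 11.24 and 11.35 in sh Grb14 livers, against 8.32, 9.52 and 10.11 in sh scramble livers. The sh scramble livers were spread over 1.79 log2 units, yet each lay below every sh Grb14 liver. The change was 1.71 (SE 0.232; limma adjusted p = 6.58e-06), or 3.26-fold higher, with a 95% interval of 1.21 to 2.20 on the log2 scale. Igfbp2, another carrier that liver secretes into the blood, fell most of all axis genes, with 7.86, 8.16 and 8.57 in sh Grb14 livers, against 10.33, 10.65 and 11.06 in sh scramble livers. No other axis gene had so wide a gap between its groups, 1.76 log2 units. The change was −2.53 (SE 0.134; limma adjusted p = 5.10e-11), 5.76-fold lower. Igfbp1 minus Igfbp2 within an array was 2.55 to 3.36 in sh Grb14 livers and −2.19 to −0.48 in sh scramble livers. The difference between the 2 changes was 4.23 (95% interval 3.52 to 4.95; exact permutation p = 0.00216, adjusted p = 0.00325). Each gene separated the groups fully, in opposite directions, so this p was bound to be the smallest possible and adds no support.

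Igfbp3, the main serum carrier of IGF1, which in rat liver is made chiefly outside hepatocytes, and Igfbp4, an inhibitory carrier cut by the protease PAPP-A, fell moderately. Igfbp3 had 8.11, 8.53 and 8.79 (lowest, median and highest) in sh Grb14 livers, against 9.13, 9.18 and 9.33 in sh scramble livers. The sh Grb14 livers were the more variable, but the groups did not meet. The change was −0.70 (SE 0.0939; limma adjusted p = 6.04e-06), or 61.7% of the sh scramble level. Igfbp4 had 12.02, 12.07 and 12.19 in sh Grb14 livers, against 12.53, 12.66 and 12.79 in sh scramble livers. Every sh Grb14 liver was below every sh scramble liver, and the change was −0.58 (SE 0.0455; limma adjusted p = 7.97e-09), with −0.38 under quantile normalization. Igfbp3 and Igfals, the 2 partners of IGF1 in its serum complex, differed by 1.21 in their changes (95% interval 0.95 to 1.48; exact permutation p = 0.00216, adjusted p = 0.00325). Their within-array difference was −0.35 to 0.37 in sh Grb14 livers and −1.46 to −1.02 in sh scramble livers, since Igfals fell further. The p of this pair was also bound to be the smallest possible by the ranges of the 2 genes, and adds no support. Sinusoidal endothelial markers split evenly, 4 higher (Lyve1, Cdh5, Pecam1 and Stab1) and 4 lower (Clec4g, Kdr, Stab2 and Fcgr2b) of 8, and their mean log2 level was 9.79 to 9.96 in sh Grb14 livers and 9.77 to 9.92 in sh scramble livers. Of 8 Kupffer cell markers, Adgre1, Cd5l, C1qa and C1qb were called higher and Clec4f, Timd4, Vsig4 and Marco were not called, with changes of −0.063 for Clec4f, −0.054 for Timd4, 0.22 for Vsig4 and 0.13 for Marco. Their mean level was 10.03 to 10.25 in sh Grb14 livers and 9.16 to 9.50 in sh scramble livers. For these counts the background is 25.8% higher and 39.5% lower among all genes. The part of these cell types in the Igfbp3 result was not tested.

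**Figure D3:**
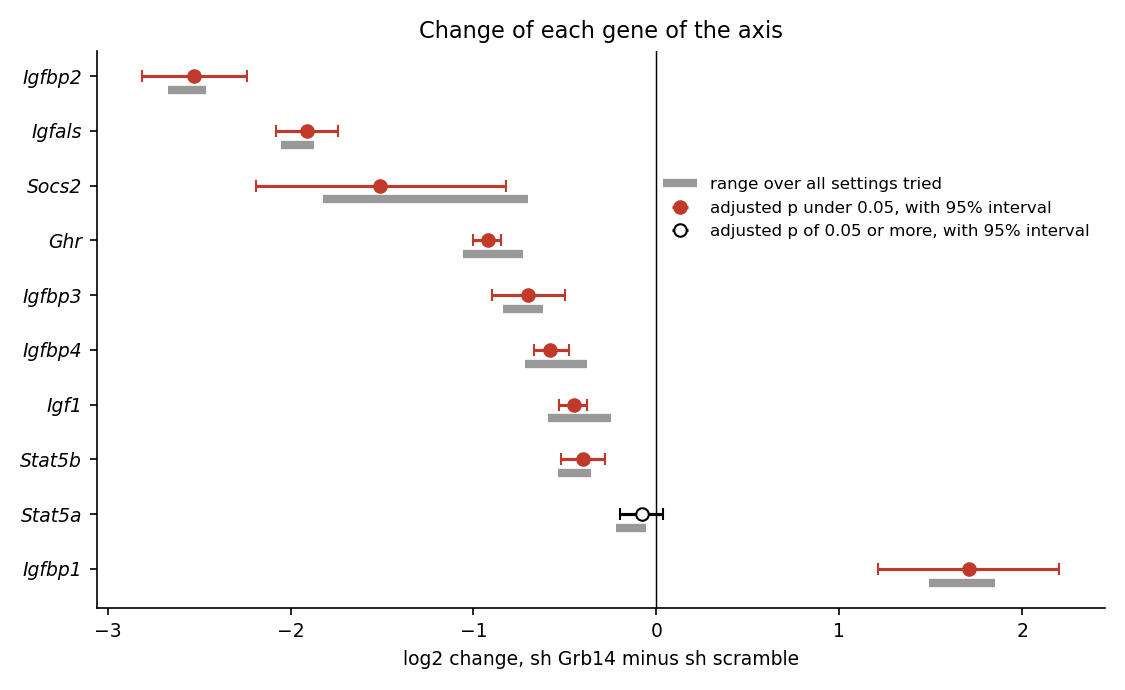
Log2 change (x axis, sh Grb14 minus sh scramble) of each axis gene, with points and bars for the estimate and its 95% interval, filled where limma's adjusted p is under 0.05, and grey bars for the range over all settings tried. Igfbp1 lies right of 0 at 1.71, the others lie left of it, and the interval of Stat5a (−0.20 to 0.037) spans 0.

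Most genes for proteins that act at the receptor rose while Ghr fell. Among all genes 25.8% were higher and 39.5% lower. Of 16 listed genes for partners and brakes of the growth hormone receptor, 13 were measured, and 10 were higher, 3 lower and 0 uncalled, with a median change of 0.24 against −0.10 over all genes. Jak2, the kinase bound to the receptor, rose, with 9.48 to 9.79 in sh Grb14 livers, against 8.63 to 8.78 in sh scramble livers (change 0.94, SE 0.0561; limma adjusted p = 2.25e-10). Socs1 and Socs3, cytokine-induced inhibitors of JAK kinases, rose by 0.99 (SE 0.0893; limma adjusted p = 4.54e-08) and 0.48 (SE 0.0876; limma adjusted p = 1.69e-04), and Socs3 by 0.30 when its probe sets were averaged. Ptpn1, a phosphatase that acts on JAK2, rose by 0.96 (SE 0.0589; limma adjusted p = 3.07e-10). In the other direction, Sh2b1, an adapter that enhances JAK2 activity, fell by 0.36 and Socs7 fell by 0.23 (limma adjusted p = 4.16e-05 for Sh2b1 and 3.24e-04 for Socs7), with −0.37 for Socs7 under median centring. The number called higher was 6 with median centring.

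Cish, another STAT5-induced inhibitor and a close relative of Socs2, was likewise narrow in sh Grb14 livers and low in sh scramble 6. It lay at 7.84 to 8.08 in sh Grb14 livers, against 8.99 to 9.68 in sh scramble 1, 3, 4 and 5, 8.12 in sh scramble 2 and 7.47 in sh scramble 6. The liver sh scramble 6 was the lowest of all 12, but the other sh scramble livers were placed differently in the 2 genes: sh scramble 2 was second lowest for Cish and among the highest for Socs2. The change was −0.88 (SE 0.296; limma adjusted p = 0.0164; exact permutation p = 0.0476) and −1.16 without sh scramble 6 (limma adjusted p = 1.56e-04). With robust variance shrinkage the call was lost (limma adjusted p = 0.0552; range over all alternatives 1.56e-04 to 0.0552). Macrophage and T cell markers moved with Jak2, Socs1, Socs3 and Ptpn1, which immune cells also express. All 8 measured monocyte and macrophage markers were higher, with a mean level of 10.02 to 10.31 in sh Grb14 livers and 8.31 to 8.65 in sh scramble livers. Of 7 T cell markers 6 were higher and 1 was lower, with a mean level of 8.49 to 8.80 in sh Grb14 livers and 7.10 to 7.21 in sh scramble livers. For these counts the background is 25.8% higher and 39.5% lower among all genes. The part of these immune cells in the rise of the receptor's partners was not tested.

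The rest of the IGF system had no common direction. Among all genes 25.8% were higher and 39.5% lower. Of 19 listed genes 17 were measured, with 7 higher, 6 lower and 4 not called, and a median change of 0.051. Igf2, the fetal growth factor that adult mouse liver keeps nearly silent, was higher and varied widely, with 8.09 to 10.26 in sh Grb14 livers, against 7.11 to 7.51 in sh scramble livers (change 1.88, SE 0.245; limma adjusted p = 3.95e-06). Igf2bp3, an RNA-binding protein of fetal tissue that binds Igf2 transcripts, rose by 1.61 (SE 0.0944; limma adjusted p = 1.70e-10), and Igf2r, the receptor that clears IGF2, rose by 1.04 (SE 0.0607; limma adjusted p = 1.58e-10). Insr, the insulin receptor, had 10.18 to 10.38 in sh Grb14 livers, against 11.29 to 11.41 in sh scramble livers (change −1.09, SE 0.0407; limma adjusted p = 7.16e-13), a fall of a size like that of Ghr, although that likeness was not tested. Igfbp5 fell by 1.06 (SE 0.085; limma adjusted p = 1.02e-08), and Irs2, which relays the insulin signal inside the cell, fell by 0.71 (SE 0.0975; limma adjusted p = 7.41e-06). Igf1r, the receptor for IGF1, changed by 0.18 (SE 0.0653; limma adjusted p = 0.0225). That Igf1r call was lost with median centring (0.043; limma adjusted p = 0.504), with quantile normalization (0.11; limma adjusted p = 0.123) and without sh Grb14 1 or sh scramble 5.

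Genes that growth hormone makes male-biased in mouse liver fell nearly as a block. Among all genes 39.5% were lower and 25.8% higher, and the groups did not overlap for 41.2%. Of 25 listed genes 22 were measured, and 21 were lower, 0 higher and 1 (Bcl6) not called, with a median change of −1.62 and no overlap between the groups for 21. Slco1a1, an organic anion transporter, had 5.36 to 6.72 in sh Grb14 livers, against 12.21 to 12.39 in sh scramble livers (change −6.19, SE 0.172; limma adjusted p = 2.51e-14). Hsd3b5, a steroid-metabolising enzyme, changed by −6.04 (SE 0.12; limma adjusted p = 1.76e-15) and Mup21, a major urinary protein gene, by −4.15 (SE 0.0997; limma adjusted p = 8.31e-15). The sh Grb14 levels of these 3 genes lie near the lower quartile of the arrays, which was 5.69 to 5.78 in sh Grb14 livers, and no detection call was made, so the sizes of their changes are uncertain and could be understated. Mup genes have near-identical copies, so the level of a single one is uncertain. The part of STAT5B, or of fewer hepatocytes, in the fall of the male-biased genes was not tested. Bcl6, a male-biased repressor that competes with STAT5, had 8.18 to 8.66 in sh Grb14 livers, against 7.64 to 10.43 in sh scramble livers (change −0.47, SE 0.321; limma adjusted p = 0.201). In sh scramble livers Bcl6 was highest in sh scramble 6, where Socs2 and Cish were lowest, and lowest in sh scramble 1. The Bcl6 change was −0.17 without sh scramble 6 (limma adjusted p = 0.528) and −0.73 without sh scramble 1 (limma adjusted p = 0.0322).

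The female-biased genes gave a mixed picture, and the share of them called was close to the 65.3% of all genes. Among all genes 25.8% were higher and 39.5% lower. Of 25 listed genes 18 were measured, with 8 higher, 3 lower and 7 not called, and a median change of 0.20. Prom1, which encodes a membrane glycoprotein, rose by 2.15 (SE 0.118; limma adjusted p = 7.45e-11), Cd36, a fatty acid transporter, by 2.05 (SE 0.118; limma adjusted p = 1.36e-10) and Cyp2b9, a cytochrome P450, by 1.89 (SE 0.244; limma adjusted p = 3.67e-06). Macrophages also express Cd36, and the macrophage marker levels given above are higher in the same livers. The part of macrophages in the Cd36 rise was not tested. Cyp17a1, a steroid hydroxylase, fell by 0.45 (SE 0.167; limma adjusted p = 0.0282), a call lost with robust shrinkage (0.0731) and without sh Grb14 1 (0.057) or sh scramble 4 (0.0672). Its change was −0.28 without sh Grb14 4, and the adjusted p of the alternatives reached 0.0731 at most. Sult3a1, a sulfotransferase near the bottom of the scale, fell by 0.14 (SE 0.0381; limma adjusted p = 0.00449), and by 0.081 with the call lost under quantile normalization (limma adjusted p = 0.0995). Cux2, a female-biased repressor of male-biased genes, had 7.20 to 7.46 in sh Grb14 livers, against 7.33 to 7.67 in sh scramble livers (change −0.17, SE 0.0672; limma adjusted p = 0.0379), a call that was lost in 7 of the 12 fits that left out a liver (limma adjusted p up to 0.0923), and −0.31 with median centring. As a check on the animals, no array stood apart in the sex chromosome genes. Xist lay at 5.30 to 5.61 in sh Grb14 livers and 5.42 to 5.65 in sh scramble livers, below each array's lower quartile. The Y-linked Kdm5d lay at 8.27 to 8.55 in sh Grb14 livers and 8.45 to 8.63 in sh scramble livers. Kdm5d and the Y-linked Uty and Eif2s3y lay above the median of each array. All 12 arrays therefore read as male, although no detection call was made. Uty was called higher (0.16), Kdm5d (−0.16) and Eif2s3y (−0.27) were called lower, and Xist was not called.

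Most of the listed liver transcription factors were lower too, against 39.5% lower and 25.8% higher among all genes. Of 12 listed, 11 were measured, with 9 lower, 0 higher and 2 not called (Cebpb and Nr0b2), and a median change of −0.75. Onecut1, which encodes HNF6, a growth hormone-responsive factor, had 8.29 to 8.79 in sh Grb14 livers, against 11.11 to 11.58 in sh scramble 1 to 5 and 9.15 in sh scramble 6. That liver came close to the sh Grb14 range without entering it. The Onecut1 change was −2.42 (SE 0.301; limma adjusted p = 2.41e-06), and −2.78 without sh scramble 6 (limma adjusted p = 8.16e-13). Cebpa, a regulator of hepatocyte metabolism, fell by 1.71 (SE 0.055; limma adjusted p = 1.23e-13) and Foxa1, a pioneer factor, by 1.07 (SE 0.0908; limma adjusted p = 1.94e-08). Hnf4a, which defines the hepatocyte programme, changed by −0.37 (SE 0.0601; limma adjusted p = 4.21e-05) and by −0.18 under quantile normalization (limma adjusted p = 0.014). Foxo1, the factor through which insulin represses Igfbp1, changed by −0.28 (SE 0.0686; limma adjusted p = 0.00196), while Igfbp1 itself rose. The Foxo1 groups overlapped, with 9.65 to 10.08 in sh Grb14 livers and 9.92 to 10.21 in sh scramble livers. These are RNA levels, and the activity of the FOXO1 protein was not measured.

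**Figure D4:**
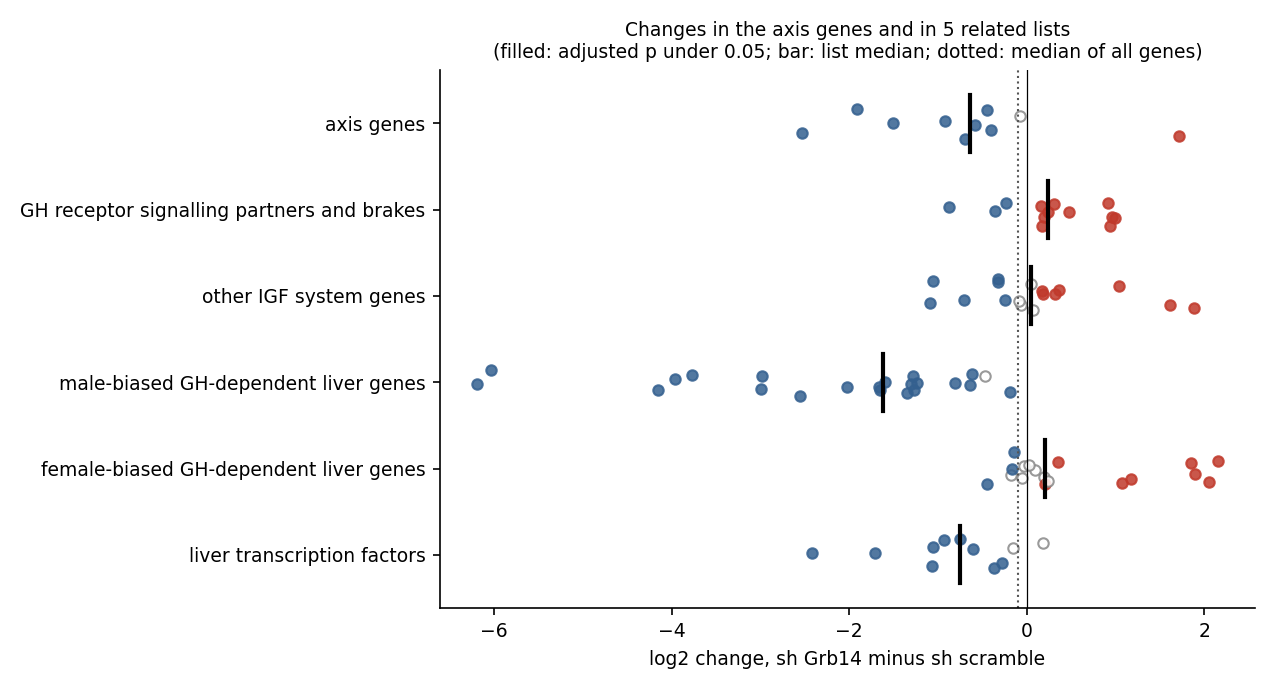
Log2 change (x axis, sh Grb14 minus sh scramble) of every measured gene of the axis and of 5 related lists (rows), filled where limma's adjusted p is under 0.05, with a bar at each list's median and a dotted line at the median of all genes (−0.10). The male-biased genes reach −6.19, and the partners and brakes of the receptor have 10 of 13 points right of 0.

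Most hepatocyte markers were lower in the same livers as the axis genes. Of 9 measured genes for abundant secreted proteins 7 were lower and 0 higher, with a median change of −0.24. Alb (change 0.036) and Ahsg (−0.0063) were not called. The mean level of the 9 genes was 13.02 to 13.16 in sh Grb14 livers and 13.28 to 13.38 in sh scramble livers. That is near the top of the array's range, and compression of bright values was not tested. Of 7 periportal markers 6 were lower and 1 was higher (Hsd17b13, 0.20), with a median of −0.66. Their mean level was 11.20 to 11.84 in sh Grb14 livers and 12.21 to 12.32 in sh scramble livers. Of 10 pericentral markers 7 were lower and 1 was higher (Gstm3, 1.18), with a median of −1.01. Their mean level was 10.38 to 10.75 in sh Grb14 livers and 11.55 to 11.72 in sh scramble livers. Stellate cell markers were 6 higher and 3 lower of 10, and B cell markers 5 higher of 5. Acute phase genes were split, with 4 higher and 6 lower of 12. For all these counts the background is 25.8% higher and 39.5% lower among all genes. The part of these cell type and acute phase differences in the changes of the axis was not tested.

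**Figure D5:**
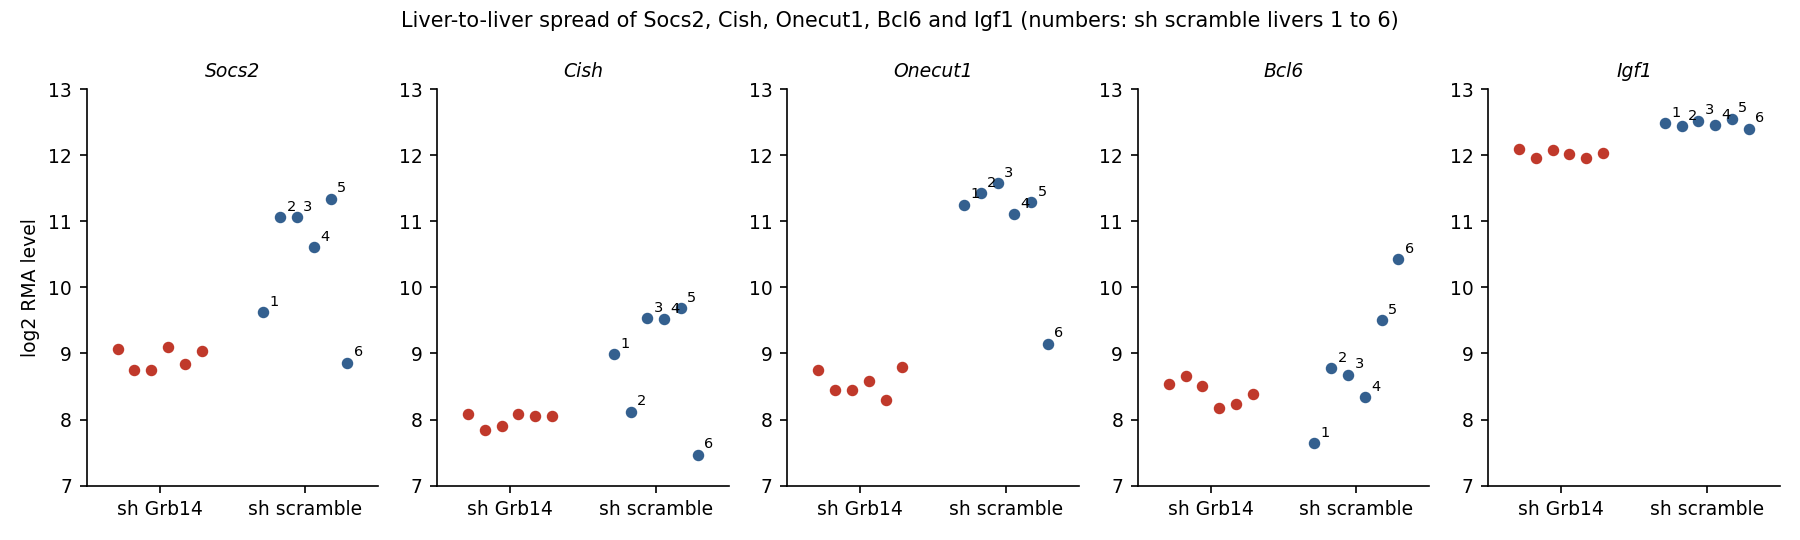
Log2 RMA level (y axis) of Socs2, Cish, Onecut1, Bcl6 and Igf1 in each sh Grb14 liver (red, left) and sh scramble liver (blue, right, numbered 1 to 6). The liver sh scramble 6 is the lowest of its group for Socs2 (8.86), Cish (7.47) and Onecut1 (9.15) and the highest for Bcl6 (10.43). Its Igf1 level (12.40) is also the lowest of its group, but for Igf1 the whole group spans only 0.15.

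The liver that was low in Socs2 was not low in the receptor. The level in sh scramble 6 minus the mean of the other 5 sh scramble livers was −1.88 for Socs2, −1.70 for Cish, −2.18 for Onecut1 and 1.85 for Bcl6. The same difference was 0.039 for Ghr, −0.086 for Igf1 and −0.23 for Igfals. Igfals and Igf1 were the lowest of their group in that liver, and Ghr was the highest of its group.

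The genes most like an axis gene were those with the smallest mean absolute difference of log2 values over the 12 arrays, each gene centred on its own mean. For Ghr these were Gpc4 (0.0297), Nadk2 (0.0348) and Cyp2e1 (0.0366), against a median of 0.415 over all genes. For Igf1 they were Stx17 (0.0281), Sft2d2 (0.0285) and Atg10 (0.0328), against a median of 0.201. No gene came as near to Socs2: Inhba (0.38), Aacs (0.393) and Nrep (0.393) were the nearest, against a median of 0.874. In sh scramble 6 the levels were 8.77 for Inhba, the lowest of its group, 9.41 for Aacs, also the lowest, and 10.02 for Nrep, which was not. Ghr and Igf1 vary little within a group, so these distances follow the difference between the groups.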

How the data were processed

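Liver RNA from 12 mice, 6 sh Grb14 and 6 sh scramble, was measured on Affymetrix whole-transcript arrays, 1 per mouse, after Trizol extraction and biotin labelling of 100 ng, per the labels. The deposited table holds the authors' log2 expression values, named through the platform's annotation. RMA and Partek appear in the submitters' processing notes without a version or a stated role, and the probe file and build are not given in the sources used here. Array medians over all probe sets were 7.06 to 7.17. No scan batch is given in the labels, so a batch and the groups cannot be told apart.

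Of 35556 probe sets, 21789 had 1 symbol and were used, while 1621 had several symbols and 12146 had none. For 999 genes with several probe sets the brightest was taken, which left 19938 genes. All were fitted with limma 3.58.1 in R 4.3.3 (lmFit, eBayes with an intensity trend), on all 12 arrays with no covariate or intensity filter. The fit was tested on simulated data with independent noise, in which a small part of the genes changed. That test does not cover data in which 65.3% of genes were called. The same arrays gave two-sided exact permutation tests of single values over all 924 assignments, whose smallest p is 0.00216. The p-values measure the spread between these mice, and 6 arrays per group limit the precision. The genes, lists and tests were chosen with earlier results of these data known. Named are the axis genes, Grb14, 14 fixed regulators and receptors (Prlr had no probe set with 1 symbol), up to 3 called genes of each list in each direction, and the 3 genes most like Ghr, Socs2 and Igf1. Stab1, Fcgr2b, C1qb, Clec4f, Timd4, Vsig4, Marco, Cebpb, Nr0b2, Alb and Ahsg complete a count and were named after their values were seen. Near-identical gene copies (Mup, Cyp, Sult) can share signal. Alternatives were median centring, quantile normalization, limma without the trend or with robust shrinkage, the mean of probe sets, leaving out the dimmest 25% of genes, and leaving out each liver. Median centring used the median of each array's probe sets with 1 symbol, not of all its probe sets. The second Socs2 probe set and the CAAAACA search were added after the data had been seen.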

Additional observations from a re-analysis of the deposited data

Results flagged for a closer look

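In 48 groups of 6 livers, those of 24 named genes, the highest or lowest liver was set against its neighbours by Dixon's test, which marks about 1 in 20 groups by chance, and 2 were marked. Stat5a in sh Grb14 5 was the highest of its group at 9.32, with the next liver at 9.24, so that the gap was 0.753 of the whole range, past the critical value for 6 samples. The range itself is 0.12 log2 units, narrower than that of the sh scramble livers. Onecut1 in sh scramble 6 was the lowest of its group at 9.15, with the next liver at 11.11, a gap of 1.96 in a range of 2.43, or 0.809 of it against the same critical value.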

How the results depend on the processing

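The members' calls kept their direction and side of the threshold under all 6 alternatives and 12 fits without 1 liver, except Stat5a, as given above. Median centring moved the number called higher to 6 among the receptor's partners and brakes and to 4 among other IGF genes, and the number of female-biased genes called lower to 5. By construction it shifts the arrays, and the median change of all genes with it. Leaving out 1 liver gave 1 to 3 female-biased genes lower (1 without sh Grb14 1) and 0 to 1 liver transcription factors higher (1 without sh scramble 6). The Stat5a minus Stat5b difference was 0.20 under quantile normalization (adjusted exact p = 0.0541). The Igf1 minus Socs2 difference ran from 0.88 to 1.35 without 1 liver, and missed the threshold without sh scramble 2, 3, 4 or 5 (adjusted exact p = 0.0628 to 0.0671). Apart from the effects of dropping a liver, the cause was not tested. No paired analysis was possible because the replicate numbers are in accession order. No detection call was made, so genes near the bottom of the scale, such as Sult3a1, Slco1a1, Hsd3b5 and Mup21, are read with less certainty.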
